A study of Mus musculus with 36 samples.

Results

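The comparison described here is that of mouse embryonic stem cells given BPK25 with cells given DMSO at day 6 of the time course. It held 3 libraries of BPK25 and 3 of DMSO, 6 of the 36 libraries in the series, which were picked by treatment and day, and 17394 genes had enough reads to be tested. The study measured polyadenylated RNA in cells given BPK25, IAA (auxin) or DMSO at days 0, 2, 4 and 6, with 3 libraries for each of the 12 combinations. All groups were labelled mESC, with no other genotype or strain in the labels, and shared a medium with KnockOut Serum Replacement and LIF; the cells were typically grown on gelatin with irradiated mouse embryonic fibroblast feeders. The series as a whole concerns how NuRD shapes chromatin and genome folding where CTCF binds. The labels do not give the dose of BPK25, the protein that auxin acts on, the event that day 0 marks or whether the 3 libraries came from separate cultures. The spread behind every p-value is therefore that of these libraries, and it may be technical in origin.

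Mouse embryonic stem cells self-renew in LIF and, once its signal or the chromatin that holds their program is disturbed, switch on genes of the germ layers. BPK25 is known here by its code name alone, and DMSO is the solvent used as its control. Auxin removes a protein that carries an auxin-inducible degron. Several gene groups below belong to the integrated stress response. In that pathway kinases that sense amino acid shortage, misfolded protein, haem shortage or double-stranded RNA phosphorylate the initiation factor eIF2, general translation falls, and the transcription factor ATF4 is made from its own mRNA and raises genes for amino acid supply, tRNA charging and feedback on the pathway.

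The libraries of day 6 held 9806071, 7604228 and 11154055 counts with BPK25, 10431792, 7780619 and 8124886 with IAA, and 16497799, 9762112 and 10433477 with DMSO, and the 36 libraries ranged between 6621288 and 16497799. Values below are CPM, the usual depth-scaled count, after scaling between libraries, and differences are log2 of BPK25 over DMSO with a standard error. The summed CPM of 10 embryonic stem cell markers lay between 1149 and 1190 in BPK25 libraries and between 1066 and 1100 in DMSO libraries, and none of the 10 was at 0. The BPK25 libraries of day 4 stood apart from those of the other days. The log2 differences between BPK25 and DMSO spread with an SD of 0.50 at day 4, against 0.17, 0.19 and 0.15 at days 0, 2 and 6, over the 11589 genes whose mean reached 5 CPM. The chromosome levels given at the end also set these 3 libraries near the IAA libraries and apart from the other BPK25 libraries. Whether they differ by treatment, by the clone or through a mix-up of samples cannot be told apart from these files, so every statement on BPK25 at day 4 is about the libraries labelled so. Those libraries take part in the day 6 test only through its shared estimate of the spread, the choice of genes tested and the scaling between libraries. Without them, but over the same genes, 705 genes were higher and 541 lower with BPK25 at day 6.

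At day 6, BPK25 cells differed from DMSO cells in many genes, each by a small amount. By edgeR's quasi-likelihood test, with Benjamini-Hochberg adjustment over all genes and an adjusted p under 0.05, 698 genes were higher with BPK25 (4.01% of those tested) and 535 were lower (3.08%). Genes past this threshold are said below to have risen or fallen. The median log2 difference was 0.26 among the genes that rose and -0.25 among those that fell, against -9.27e-05 over all genes tested. Of the 1233 genes, 75 were higher and 28 lower by at least 1.5-fold, and 14 were higher and 5 lower by at least 2-fold. The 3 BPK25 and 3 DMSO libraries did not overlap in 1164 of the 1233, and in 23.4% of all genes tested. Absence of overlap was also required of the highest and lowest genes named below, so there it is no added evidence. An unadjusted p under 0.05 was reached by 20.2% of all genes tested. The counts rested in part on single libraries. Without DMSO replicate 1, the deepest library, 320 genes rose and 224 fell; the counts were 446 and 300 without BPK25 replicate 1, 452 and 313 without BPK25 replicate 3, and 455 and 335 without DMSO replicate 3. The call held without each of the 6 libraries in turn for 352 genes, 211 higher and 141 lower, and genes named below are from these unless their values without a library are given.

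**Figure D1:**
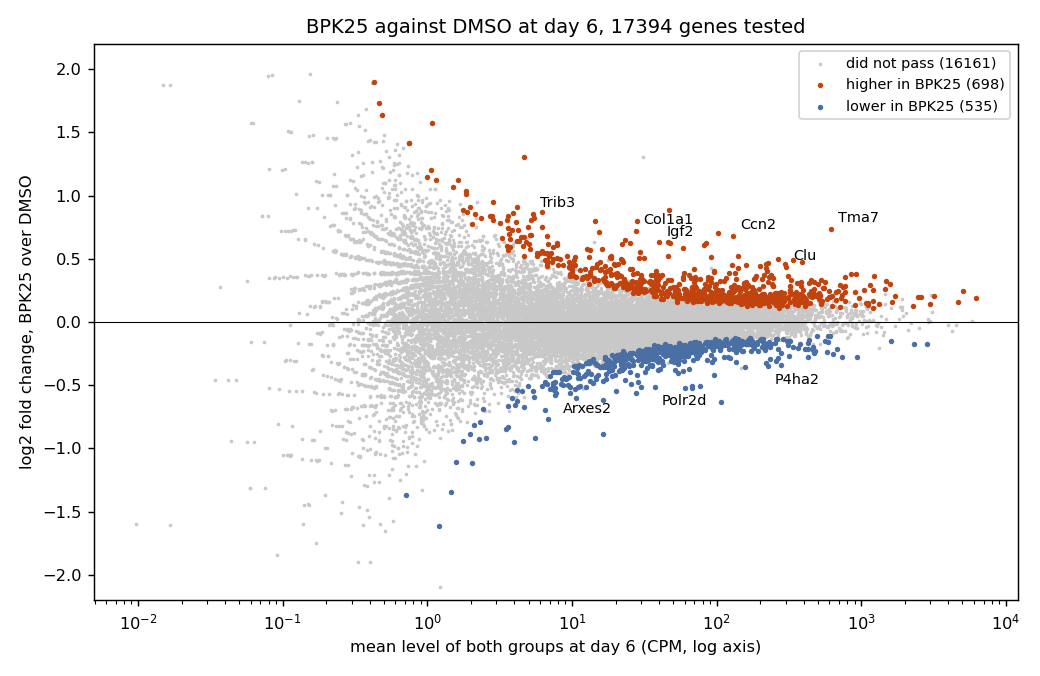
Each point is 1 of the genes tested, with the mean CPM of the 6 day 6 libraries on a log axis and the log2 of BPK25 over DMSO on the other; the 698 genes that rose and the 535 that fell are coloured. Most coloured points lie close to 0, and 13 genes beyond ±2.2 are outside the plotted range.

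The clearest single difference was in Ccn2, a secreted matricellular protein of connective tissue and a usual target of YAP. Ccn2 (ENSMUSG00000019997.11, 4 exons on the plus strand at chr10:24595442-24598683 of mm10) had 158.4, 167.0 and 156.1 CPM in BPK25 libraries, against 99.08, 100.5 and 100.4 CPM in DMSO libraries. The groups lay far apart and the DMSO libraries were almost level, so that the log2 difference was 0.68 ± 0.05 with an adjusted p of 7.71e-15 by edgeR's quasi-likelihood test with Benjamini-Hochberg adjustment, which also gives the adjusted p-values that follow. Igf2, an imprinted fetal growth factor expressed from the paternal allele (minus strand, chr7:142650766-142666816), had 103.1, 100.9 and 103.0 CPM in BPK25 libraries and 65.86, 69.04 and 64.51 CPM in DMSO libraries, without overlap. Its log2 difference was 0.63 ± 0.06 (adjusted p = 1.5e-10), and the gene model Gm49394, which overlaps it and whose reads cannot be told from those of Igf2 here, was higher by 0.61. Clu, a secreted chaperone, had 351.6, 360.3 and 333.1 CPM in BPK25 libraries and 267.0, 254.3 and 251.7 CPM in DMSO libraries, a log2 difference of 0.43 ± 0.04 (adjusted p = 2.54e-10). Gpc3, a heparan sulfate proteoglycan at the cell surface that restrains growth, had 259.8, 250.6 and 243.5 CPM in BPK25 libraries and 183.4, 190.2 and 188.5 CPM in DMSO libraries (log2 difference 0.42 ± 0.05). All 3 BPK25 libraries were above all 3 DMSO libraries for both genes.

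The structural genes Col1a1 and Tpm2 rose as well. Col1a1, the main chain of type I collagen (plus strand, chr11:94936224-94953042), had 34.48, 35.7 and 33.34 CPM in BPK25 libraries and 20.64, 20.7 and 21.53 CPM in DMSO libraries, with a log2 difference of 0.72 ± 0.08 (adjusted p = 3.31e-08). Tpm2, a tropomyosin of actin filaments, had 70.57, 71.13 and 67.21 CPM in BPK25 libraries and 44.99, 49.72 and 44.73 CPM in DMSO libraries, with a log2 difference of 0.59 ± 0.07. Neither pair of groups overlapped. Tma7, a small protein tied to the translation machinery in yeast, had 810.6, 803.2 and 693.6 CPM in BPK25 libraries and 411.9, 529.3 and 444.9 CPM in DMSO libraries (log2 difference 0.74 ± 0.12). Its replicates were wider apart than those of the genes above. Reads may be shared with its near copy Tma7-ps, which averaged 61.1 CPM with BPK25 and 33.2 CPM with DMSO, so this value is uncertain.

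The other genes with the highest log2 differences that kept their call were Gdf9, an oocyte growth factor (0.91), Ccdc80, a secreted matrix protein (0.87), Ptger3, a prostaglandin E2 receptor (0.81), Plet1, a surface protein of the trophoblast lineage (0.80), Sparcl1, a matricellular protein (0.75), Palm3, of the paralemmin family (0.71), Jdp2, a repressor of AP-1 (0.65), Calcoco2, an autophagy receptor (0.63), Pet2 (0.63), and Pigr, the polymeric immunoglobulin receptor, at 5.03 ± 0.502 CPM with BPK25 and 2.77 ± 0.614 CPM with DMSO (SD, n = 3 each). Several are scarce transcripts, for example Gdf9 at 5.47 ± 0.517 CPM with BPK25 and 2.85 ± 0.492 CPM with DMSO. Plet1 averaged 18.1 ± 1.69 CPM with BPK25 and 10.6 ± 1.02 CPM with DMSO, and Calcoco2 averaged 48.0 ± 3.79 CPM with BPK25 and 31.3 ± 1.45 CPM with DMSO.

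Large falls were fewer than large rises, with 28 genes lower and 75 higher by at least 1.5-fold. The median log2 differences of the genes that fell and rose were of like size, at -0.25 and 0.26. Polr2d, a subunit of RNA polymerase II, had 30.17, 29.25 and 32.54 CPM in BPK25 libraries and 45.57, 42.39 and 43.16 CPM in DMSO libraries (log2 difference -0.51 ± 0.07, adjusted p = 8.32e-07). Uqcr11, a small subunit of respiratory complex III, had 65.16, 62.24 and 63.22 CPM in BPK25 libraries and 89.92, 92.42 and 89.08 CPM in DMSO libraries (log2 difference -0.51 ± 0.07). P4ha2, a prolyl hydroxylase of collagen (plus strand, chr11:54100095-54131665), had 196.7, 200.1 and 196.5 CPM in BPK25 libraries and 252.2, 247.8 and 253.9 CPM in DMSO libraries (log2 difference -0.35 ± 0.04, adjusted p = 3.58e-07). In each of the 3 genes every BPK25 library was below every DMSO library. P4ha2 thus fell while the collagen gene Col1a1 rose.

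The largest falls among genes that kept their call were those of Arxes2 (-0.57), Trmt12 (-0.56), Lcmt2 (-0.56) and Mrpl57 (-0.56). Trmt12 and Lcmt2 both encode enzymes that build wybutosine, a modified base of phenylalanine tRNA, and Mrpl57 encodes a protein of the mitochondrial ribosome. Trmt12 averaged 6.24 ± 0.418 CPM with BPK25 and 9.27 ± 0.658 CPM with DMSO (SD, n = 3 each). Lcmt2 averaged 7.71 ± 1.23 CPM with BPK25 and 11.5 ± 0.398 CPM with DMSO. The histone gene Hist1h2af fell to 24.9 ± 0.33 CPM with BPK25, against 35.3 ± 3.38 CPM with DMSO. Srxn1, a sulfiredoxin that repairs peroxiredoxins and is a target of NRF2, had 24.86, 23.2 and 23.94 CPM in BPK25 libraries and 32.41, 32.49 and 35.71 CPM in DMSO libraries (log2 difference -0.48 ± 0.07, adjusted p = 2.95e-06). The remaining 7 of the 15 lowest genes by this rule, among them Derl2 of the endoplasmic reticulum's degradation pathway (-0.49) and the ribosomal protein paralogue Rpl22l1 (-0.42), lay between -0.49 and -0.41.

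**Figure D2:**
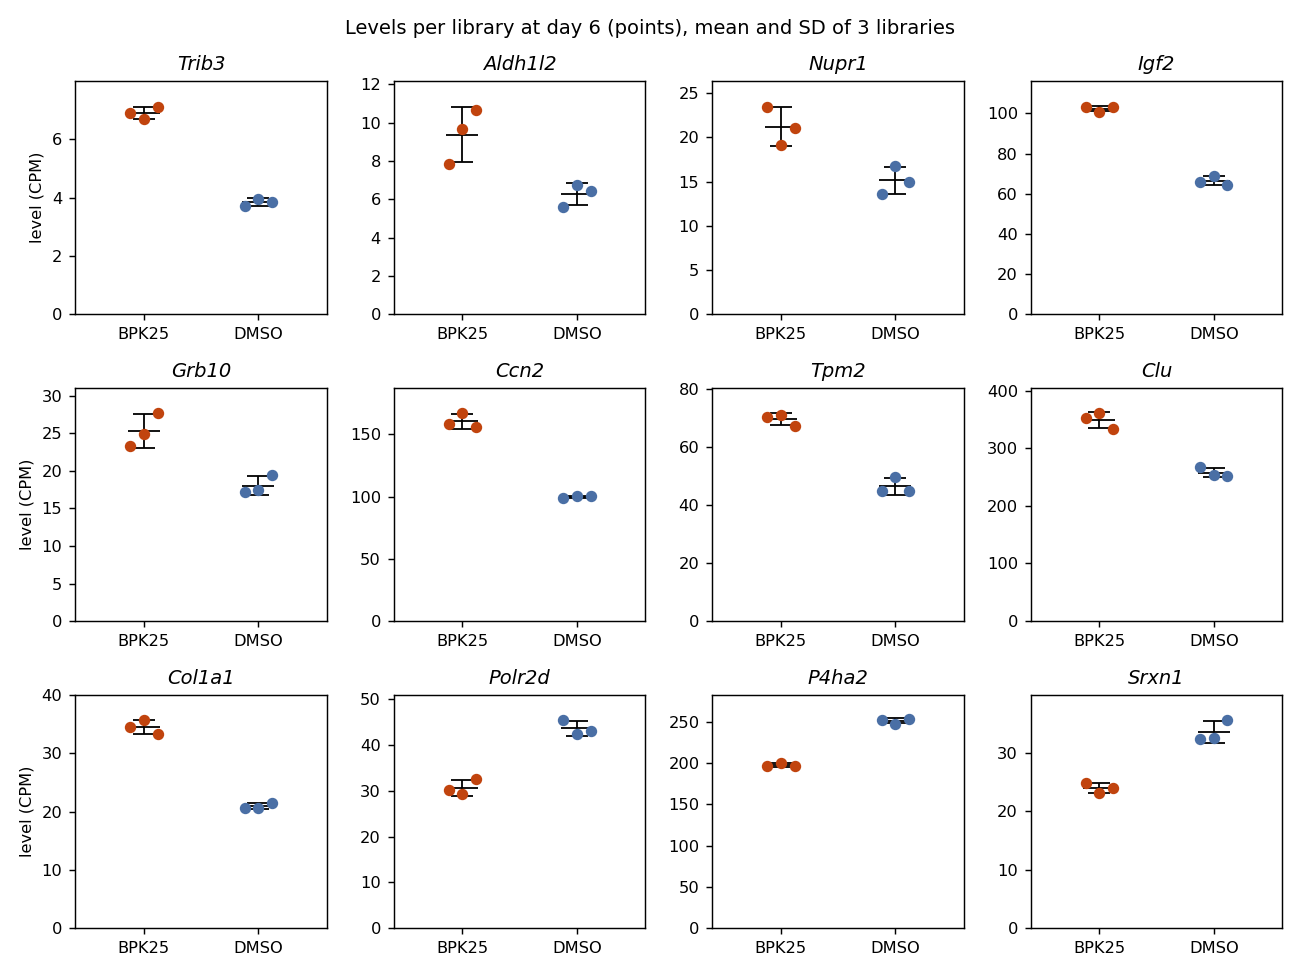
CPM of 12 genes in each day 6 library, BPK25 on the left and DMSO on the right of each panel, with a bar at the mean of the 3 libraries. The groups do not overlap in any of the 12 panels, which the naming rule required of the highest and lowest genes. With BPK25, 9 genes are higher and 3 (Polr2d, P4ha2 and Srxn1) lower.

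Among the pathway lists, the integrated stress response had the most members that rose. Of 29 members tested, 12 rose and none fell, against 4.01% rising over all genes; 24 of the 29 had a positive log2 difference, and the median was 0.18, against -9.27e-05 over all genes. DESeq2 gave the same counts. The counts of every list below stand beside 4.01% of all genes tested that rose and 3.08% that fell. Genes that passed had a median level of 60.48 CPM over all libraries, against 14.15 CPM for all genes tested. Lists of well-expressed genes can therefore hold more calls than these shares for that reason alone, and its part was not tested. In this list and in those below where edgeR called no member in 1 direction, DESeq2 called none there either. At an unadjusted p under 0.05 that direction held 2 genes for this list and for the tRNA synthetases, 2 for naive pluripotency, 1 each for the imprinted, matrix and heart and vessel lists, and 0 for the p53, cholesterol, keratin, mitochondrially encoded, NuRD and feeder lists. Without DMSO replicate 1, 7 of the 29 rose, and across the leave-one-out fits the number lay between 7 and 11. Trib3, a pseudokinase that restrains ATF4 (ENSMUSG00000032715.9, minus strand, chr2:152337422-152344032), had 6.917, 6.701 and 7.093 CPM in BPK25 libraries and 3.71, 3.962 and 3.865 CPM in DMSO libraries. Its log2 difference was 0.86 ± 0.16 (adjusted p = 0.000374), and the spread within each group was small beside the gap. Aldh1l2, the mitochondrial enzyme that oxidises formyl-tetrahydrofolate, had 7.819, 9.665 and 10.64 CPM in BPK25 libraries and 5.624, 6.736 and 6.442 CPM in DMSO libraries (log2 difference 0.61 ± 0.13, adjusted p = 0.00152). Nupr1, a small stress-induced chromatin protein, had 23.46, 19.07 and 21.1 CPM in BPK25 libraries and 13.62, 16.74 and 15.0 CPM in DMSO libraries (log2 difference 0.52 ± 0.09, adjusted p = 0.000266). Phgdh, the first enzyme of serine synthesis, had 72.48, 83.12 and 82.82 CPM in BPK25 libraries and 61.63, 62.7 and 61.29 CPM in DMSO libraries (log2 difference 0.36 ± 0.05, adjusted p = 7.65e-06). No library of either group crossed over in these 4 genes. Pck2, the mitochondrial phosphoenolpyruvate carboxykinase, averaged 24.6 ± 1.23 CPM with BPK25 and 19.2 ± 0.752 CPM with DMSO (log2 difference 0.36); these 5 members kept their call without each library.

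The other 7 members that rose did not keep their call throughout, and 6 of the 12 (Chac1, Atf3, Atf4, Ddit3, Mthfd2 and Ppp1r15a) are named to give the list whole and lie outside the rule that chose genes. Chac1, which degrades glutathione, had 4.611, 5.67 and 4.965 CPM in BPK25 libraries and 3.015, 3.566 and 3.221 CPM in DMSO libraries (log2 difference 0.64 ± 0.17), and its adjusted p was 0.0604 without BPK25 replicate 2 and 0.099 without DMSO replicate 1. Atf3, a stress transcription factor, averaged 20.8 CPM with BPK25 and 16.2 CPM with DMSO (log2 difference 0.37), with adjusted p-values of 0.0835 and 0.0508 without DMSO replicates 1 and 3. Slc3a2, the heavy chain of amino acid exchangers, averaged 191.5 CPM with BPK25 and 160.4 CPM with DMSO (0.25), with an adjusted p of 0.0669 without BPK25 replicate 2. Atf4 itself averaged 142.1 CPM with BPK25 and 125.6 CPM with DMSO (0.18), with adjusted p-values of 0.11 without BPK25 replicate 3 and 0.0519 without DMSO replicate 3. Ddit3, the transcription factor CHOP, averaged 42.7 CPM with BPK25 and 35.9 CPM with DMSO (0.26), and its adjusted p without a library reached 0.154, without DMSO replicate 1. A second gene entry named Ddit3, left out of the list's counts for its lower level, averaged 7.02 CPM with BPK25 and 7.465 CPM with DMSO. Its log2 difference was -0.10, its groups overlapped, and it did not pass the test. Ppp1r15a, the eIF2 phosphatase subunit (0.21), and Mthfd2, a mitochondrial folate enzyme (0.19), each lost their call without any 1 of 4 libraries, with adjusted p-values up to 0.12 and 0.124. Asns, asparagine synthetase and a classic ATF4 target, averaged 69.9 CPM with BPK25 and 64.4 CPM with DMSO and did not pass the test.

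ATF4 acts on C/EBP-ATF composite sites, and members that moved together were therefore looked up in a table of promoters, to show where such letters stand. The letters TGATGNAAN were searched on both strands in the 300 bases from 250 before to 50 after each gene's RefSeq start. They stood in 10 of the 27 list members with a promoter in the table (37%), in 5 of the 11 that rose (Atf3, Chac1, Nupr1, Pck2 and Trib3), and in 4.5% of 27025 promoters of all genes. They also stood in 5 of 12 tRNA synthetase promoters. A match is a description of letters and not of binding. The list was drawn up from genes of the ATF4 pathway, so its share of matches says nothing about BPK25 at day 6. The windows of 4 members that rose are given 5′ to 3′ on the gene's strand, from RefSeq on GRCm38.p6, with the matched letters in capitals; each match is on the strand opposite the gene and so reads as the reverse complement. The window of Trib3 is chr2:152344011-152344310 (minus strand), that of Chac1 is chr2:119350992-119351291 (plus strand), that of Nupr1 is chr7:126625421-126625720 (minus strand) and that of Atf3 is chr1:191183284-191183583 (minus strand).
Trib3: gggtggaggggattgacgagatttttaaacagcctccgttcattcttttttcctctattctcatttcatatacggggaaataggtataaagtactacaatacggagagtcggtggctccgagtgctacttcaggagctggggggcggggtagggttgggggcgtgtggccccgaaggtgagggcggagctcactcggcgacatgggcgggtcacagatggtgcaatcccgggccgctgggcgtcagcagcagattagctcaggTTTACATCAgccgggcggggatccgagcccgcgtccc
Chac1: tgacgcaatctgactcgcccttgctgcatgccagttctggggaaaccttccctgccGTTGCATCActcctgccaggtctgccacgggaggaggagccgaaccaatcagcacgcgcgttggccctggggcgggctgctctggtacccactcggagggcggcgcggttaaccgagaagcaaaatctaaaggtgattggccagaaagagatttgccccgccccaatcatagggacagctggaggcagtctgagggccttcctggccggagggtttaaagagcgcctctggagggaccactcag
Nupr1: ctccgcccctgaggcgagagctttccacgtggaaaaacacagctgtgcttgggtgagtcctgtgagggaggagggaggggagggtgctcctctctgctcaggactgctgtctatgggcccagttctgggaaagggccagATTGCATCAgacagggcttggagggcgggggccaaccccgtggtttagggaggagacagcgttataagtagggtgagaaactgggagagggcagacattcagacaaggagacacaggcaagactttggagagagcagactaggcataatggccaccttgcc
Atf3: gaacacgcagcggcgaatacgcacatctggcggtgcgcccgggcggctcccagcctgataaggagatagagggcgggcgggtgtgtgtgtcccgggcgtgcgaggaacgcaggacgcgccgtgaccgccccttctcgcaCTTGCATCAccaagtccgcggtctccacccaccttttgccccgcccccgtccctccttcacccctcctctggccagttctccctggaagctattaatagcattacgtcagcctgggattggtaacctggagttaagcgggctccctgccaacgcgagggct
In Nupr1 and Atf3 the match stands at bases 140 to 148 of the window, before the start; in Chac1 it stands at bases 57 to 65. In Trib3 it stands at bases 264 to 272 and hence after the RefSeq start. The coordinates given for Trib3 further above begin downstream of the RefSeq start, and the match lies before that other start. Other letter patterns were also more common in the list than in all promoters, for example CCAAT in 66.7% of the list's promoters and 41.1% of all, and GCGTG in 70.4% and 35.2%.

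The aminoacyl-tRNA synthetases, which charge tRNAs with amino acids and include ATF4 targets, rose in 6 of 20 members, and none fell; the median log2 difference was 0.09. Aars, for alanine, averaged 489.0 ± 4.96 CPM with BPK25 and 412.8 ± 11.4 CPM with DMSO (SD, n = 3 each), a log2 difference of 0.25 (adjusted p = 4.2e-06). Lars, for leucine, averaged 229.4 ± 7.41 CPM with BPK25 and 188.2 ± 0.6 CPM with DMSO (0.29, adjusted p = 4.2e-06), and Nars, for asparagine, averaged 309.6 CPM with BPK25 and 269.1 CPM with DMSO (0.20). The calls of Cars, Kars and Sars depended on single libraries, and 3 members rose and 1 fell without DMSO replicate 3, 4 rose and 1 fell without BPK25 replicate 2, and 10 rose with DESeq2.

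Genes of collagen and the extracellular matrix rose in 8 of 35 tested members and none fell, with a median log2 difference of 0.18. Apart from Ccn2 and Col1a1 they included Col3a1, the chain of type III collagen, with 30.88, 32.35 and 28.02 CPM in BPK25 libraries and 19.42, 22.98 and 16.75 CPM in DMSO libraries (log2 difference 0.62, adjusted p = 1.22e-05). Col5a2, of type V collagen, averaged 15.8 ± 0.261 CPM with BPK25 and 10.6 ± 1.38 CPM with DMSO (0.57, adjusted p = 0.000564). Without DMSO replicate 1, 5 members of the list rose; Col1a2, the partner chain of Col1a1, had a log2 difference of 0.31 and adjusted p-values of 0.174 without BPK25 replicate 1 and 0.0751 without DMSO replicate 3. Collagens are also made by the fibroblasts used as feeders. Of 16 feeder markers tested, 4 rose and none fell, no marker was at 0 in either group, and the summed CPM of the list lay between 3928 and 4056 in BPK25 libraries and between 3807 and 3947 in DMSO libraries, which overlap. Col1a1 and Col3a1 are among these 4 and in the matrix list, so the marker count is not separate from the matrix result. Both are a small part of the sum, which other markers carry. The part of feeder cells in the matrix result was not tested, and in bulk RNA more cells of a type cannot be told apart from more RNA per cell.

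Genes of smooth muscle and the serum response factor SRF, which drives actin filament genes, moved both ways: 6 of 24 members rose and 2 fell. Tpm1, another tropomyosin, averaged 869.4 ± 44.4 CPM with BPK25 and 680.7 ± 30.3 CPM with DMSO (log2 difference 0.35, adjusted p = 3.77e-06), and Tagln, an actin-binding protein of smooth muscle, averaged 34.3 ± 1.69 CPM with BPK25 and 24.01 ± 1.65 CPM with DMSO (0.51, adjusted p = 2.26e-05). Actb, cytoplasmic β-actin, fell to 584.1 ± 20.1 CPM with BPK25, against 696.0 ± 37.6 CPM with DMSO (-0.25, adjusted p = 0.00311). Without DMSO replicate 1, 3 members rose. Of 21 YAP targets 4 rose and 1 fell, and Ccn2 alone among them kept its call without each library. Genes of heart and blood vessel rose in 5 of 20 members, and none fell, with a median of 0.32. Kdr, the VEGF receptor of endothelium, averaged 15.1 ± 1.23 CPM with BPK25 and 10.1 ± 1.46 CPM with DMSO (0.58, adjusted p = 0.000637), Pecam1, an endothelial adhesion molecule that embryonic stem cells also express, averaged 54.2 ± 4.03 CPM with BPK25 and 43.2 ± 1.68 CPM with DMSO (0.34), and Ryr2, the cardiac calcium release channel, averaged 23.0 CPM with BPK25 and 18.1 CPM with DMSO (0.36). Without BPK25 replicate 1 or without DMSO replicate 3, 3 members of that list rose, and without BPK25 replicate 2, 4 rose and 1 fell. The summed CPM of 6 endothelial markers lay between 107.2 and 120.2 in BPK25 libraries and between 83.1 and 93.27 in DMSO libraries, 3 of the 6 rose and none was at 0; their part in the result was not tested.

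Imprinted genes, which are expressed from 1 parental allele and often act on fetal growth, rose in 9 of 32 members and none fell; the median log2 difference was 0.14. Besides Igf2 they were led by Grb10, an adaptor that restrains insulin signalling, with 23.26, 24.87 and 27.66 CPM in BPK25 libraries and 17.16, 17.43 and 19.42 CPM in DMSO libraries (0.50, adjusted p = 0.000326). Plagl1, a zinc finger transcription factor, averaged 151.6 ± 6.06 CPM with BPK25 and 115.5 ± 2.73 CPM with DMSO (0.39, adjusted p = 1.05e-05). Peg3, another zinc finger protein, averaged 1579 ± 17.4 CPM with BPK25 and 1319 ± 41.6 CPM with DMSO (0.26, adjusted p = 1e-05), and the noncoding RNA Meg3 averaged 226.8 CPM with BPK25 and 199.7 CPM with DMSO (0.19). The list holds genes expressed from either parental allele, and these counts do not separate alleles. Without DMSO replicate 1, 5 members rose.

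Keratin and desmosome genes of epithelia rose in 5 of 23 members, and none fell, with a median of 0.17. Epcam, an epithelial adhesion molecule, averaged 42.8 ± 1.97 CPM with BPK25 and 33.7 ± 2.23 CPM with DMSO (0.36, adjusted p = 0.000395), Cdh1, E-cadherin, averaged 152.0 CPM with BPK25 and 132.2 CPM with DMSO (0.20), and the desmosomal plaque gene Dsp averaged 773.2 CPM with BPK25 and 679.5 CPM with DMSO (0.19). In the germline list 6 of 24 members rose and 1 fell, and 2 rose without DMSO replicate 1. Ddx4, an RNA helicase of germ cells, averaged 32.4 CPM with BPK25 and 26.4 CPM with DMSO (0.30), and Rhox6, a homeobox gene, averaged 34.01 CPM with BPK25 and 26.8 CPM with DMSO (0.34). Dazl, an RNA-binding protein of germ cells, was the member that fell, at 428.0 ± 2.46 CPM with BPK25 and 507.8 ± 10.4 CPM with DMSO (-0.25, adjusted p = 5.17e-05).

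Genes encoded in the mitochondrial DNA and nuclear genes of the same respiratory chain differed in their counts. Of 13 mitochondrially encoded genes 6 rose and none fell, with a median of 0.20, and of 43 nuclear respiratory chain genes 5 rose and 10 fell, with a median of -0.02. Of the mitochondrially encoded genes, 5 rose and 1 fell without BPK25 replicate 2, and 4 rose without DMSO replicate 3. The call held without each library for 3 of them, mt-Cytb, mt-Nd1 and mt-Nd6. mt-Cytb, of complex III, had 5394, 5608 and 5434 CPM in BPK25 libraries and 4653, 4522 and 4691 CPM in DMSO libraries (log2 difference 0.25, adjusted p = 0.000579). mt-Nd1, of complex I, had 2616, 2645 and 2589 CPM in BPK25 libraries and 2292, 2219 and 2329 CPM in DMSO libraries (0.20, adjusted p = 0.00122). The groups were well separated for both genes. mt-Nd6 had 29.47, 25.9 and 50.9 CPM in BPK25 libraries and 19.42, 22.58 and 21.17 CPM in DMSO libraries, with BPK25 replicate 3 far above the rest; it lies on the other strand from most mitochondrial genes, and with the strand setting of the counting not given its reads may include those of its neighbours. The share of all counts from mitochondrial genes was 1.90% ± 0.0285 with BPK25 and 1.77% ± 0.0241 with DMSO (SD, n = 3 each; exact two-sided permutation test p = 0.1, the smallest p that 3 against 3 allows).

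Among nuclear respiratory genes, Uqcr11 fell most clearly, Cox7b of complex IV averaged 138.9 CPM with BPK25 and 162.2 CPM with DMSO (-0.23), and Ndufa1 of complex I averaged 35.2 CPM with BPK25 and 43.9 CPM with DMSO (-0.31). Ndufb10, also of complex I, moved the other way, at 184.3 ± 2.79 CPM with BPK25 and 156.8 ± 1.58 CPM with DMSO (0.23, adjusted p = 0.00256). The list's counts depended on single libraries: 1 rose and 5 fell without BPK25 replicate 1, 2 rose without BPK25 replicate 2, 6 fell without BPK25 replicate 3, 1 rose and 6 fell without DMSO replicate 1, 3 rose without DMSO replicate 2, and 3 rose and 5 fell without DMSO replicate 3. Picked by symbol after their values were seen, cytosolic ribosomal protein genes rose in 5 and fell in 14 of 84 members, and mitochondrial ribosomal protein genes rose in 1 and fell in 9 of 80. These families have many processed pseudogenes that can share reads with them; pseudogenes rose in 28 and fell in 46 of 1298 tested.

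Fewer lists held mostly members that fell, and over all genes tested 3.08% fell. Of 25 genes of cholesterol synthesis 4 fell and none rose, with a median of -0.12. Acat2, the thiolase of its first step, averaged 47.1 ± 1.75 CPM with BPK25 and 57.1 ± 0.591 CPM with DMSO (-0.27, adjusted p = 0.00156), and Insig1, the retention factor that senses sterols, averaged 50.4 ± 0.527 CPM with BPK25 and 59.3 ± 0.716 CPM with DMSO (-0.23). These were the members that kept their call, and the count was 2 without either BPK25 replicate 1 or 2, without either DMSO replicate 1 or 3, and with DESeq2. Lysosome and autophagy genes fell in 5 of 25 members and rose in 1: the protease Ctsd averaged 378.1 ± 16.5 CPM with BPK25 and 438.4 ± 7.3 CPM with DMSO (-0.21, adjusted p = 0.000262), whereas Map1lc3b, the LC3 protein of autophagosomes, averaged 107.3 CPM with BPK25 and 87.2 CPM with DMSO (0.29). Without BPK25 replicate 1 or DMSO replicate 1, 2 of that list fell. NRF2 targets fell in 4 of 26 members and rose in 1; beside Srxn1 the ferritin light chain Ftl1 fell to 535.8 ± 25.2 CPM with BPK25, against 629.8 ± 13 CPM with DMSO (-0.23, adjusted p = 0.00226). Targets of p53 fell in 4 of 25 members and none rose: Bax, a trigger of apoptosis, averaged 47.5 ± 3.32 CPM with BPK25 and 59.7 ± 2.81 CPM with DMSO (-0.33, adjusted p = 0.000164), and Trp53inp1, a p53-induced cofactor, averaged 76.6 CPM with BPK25 and 94.7 CPM with DMSO (-0.30). Without BPK25 replicate 3 or DMSO replicate 1, 2 of them fell.

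Endoderm genes moved in both directions, with 3 of 29 rising and 4 falling; 1 rose without BPK25 replicate 1 or 2 or DMSO replicate 1 or 2, and 3 or 4 fell in each leave-one-out fit. Gata4, a transcription factor of primitive endoderm, averaged 46.4 ± 0.87 CPM with BPK25 and 61.2 ± 2.97 CPM with DMSO (-0.40, adjusted p = 3.5e-05), and Srgn, a proteoglycan of secretory granules, averaged 209.3 CPM with BPK25 and 256.5 CPM with DMSO (-0.29). Apoe, a lipid carrier, averaged 283.5 CPM with BPK25 and 241.9 CPM with DMSO (0.23). The summed CPM of 7 endoderm markers lay between 230.4 and 238.6 in BPK25 libraries and between 255.1 and 261.6 in DMSO libraries, without overlap. In the basement membrane the laminin chain Lama1 fell to 2650 ± 26.5 CPM with BPK25, against 2994 ± 10.1 CPM with DMSO (-0.18, adjusted p = 0.000141), while the collagen chain Col4a2 rose to 3416 ± 51.6 CPM with BPK25, against 2963 ± 132 CPM with DMSO (0.20 ± 0.04). Fst, a binding protein that blocks activin, averaged 82.5 ± 0.975 CPM with BPK25 and 102.4 ± 5.91 CPM with DMSO (-0.31, adjusted p = 0.000119).

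The lists of the complexes that the series is about are short, and their shares rest on few genes. Of 16 NuRD genes 2 rose and none fell, 12.5% of the list. Of the CTCF and cohesin list 11.8% passed, against 7.09% of all genes in either direction. Neither share was below that of all genes, and counts this small do not settle a difference. Mta2, a scaffold subunit of NuRD, had 361.3, 370.5 and 312.6 CPM in BPK25 libraries and 256.9, 271.7 and 282.2 CPM in DMSO libraries; the lowest BPK25 library was above the highest DMSO library, and the log2 difference was 0.36 ± 0.05 (adjusted p = 7.85e-06). Chd4, the remodelling ATPase, averaged 1278 ± 7.56 CPM with BPK25 and 1137 ± 54.8 CPM with DMSO (0.17, adjusted p = 0.0121), with adjusted p-values of 0.0974 without DMSO replicate 1 and 0.0714 without DMSO replicate 3. Of 17 CTCF and cohesin genes 1 rose (Wapl, the cohesin release factor) and 1 fell (Cdca5, sororin), and each lost its call without 4 libraries; none of the 17 passed without BPK25 replicate 2, BPK25 replicate 3 or DMSO replicate 1, 1 fell and none rose without DMSO replicate 3, and 2 rose and none fell without DMSO replicate 2 and with DESeq2. Ctcf averaged 312.8 CPM with BPK25 and 290.8 CPM with DMSO without passing the test. Of 14 core pluripotency genes 1 rose and 2 fell, but no member kept its call without each library: none passed without DMSO replicate 3, and 1 fell and none rose without BPK25 replicate 1, 2 or 3 or DMSO replicate 1; Pou5f1, which encodes OCT4, averaged 219.8 CPM with BPK25 and 208.0 CPM with DMSO and did not pass. Among 17 tested genes of naive pluripotency Zfp42 (REX1) alone passed, at 177.2 ± 4.7 CPM with BPK25 and 143.6 ± 4.93 CPM with DMSO (0.30, adjusted p = 7.92e-05). None of 12 aryl hydrocarbon receptor targets, 22 BMP and Id genes, 29 cilia genes and 15 genes of fatty acid synthesis passed by edgeR or DESeq2; at an unadjusted p under 0.05 these lists held 3, 4, 4 and 4 genes. Cyp1a1, the detoxifying enzyme that marks that receptor's activity, averaged 6.00 CPM with BPK25 and 5.89 CPM with DMSO, and the gastrokine Gkn1 averaged 102.5 CPM with BPK25 and 104.7 CPM with DMSO.

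**Figure D3:**
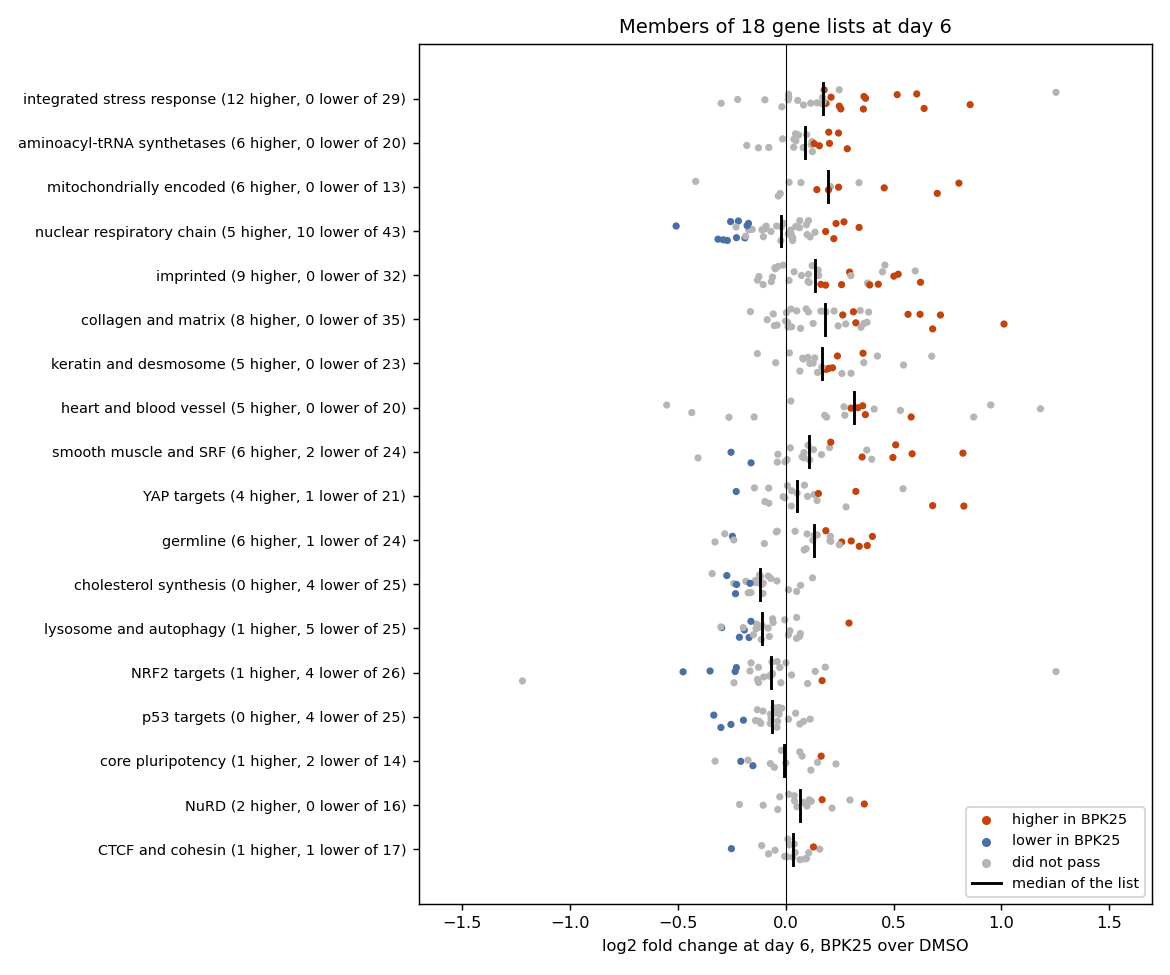
Log2 of BPK25 over DMSO at day 6 for the members of 18 gene lists, 1 row per list, with members that passed the test coloured and a bar at each list's median. Lists with medians above 0 include the integrated stress response and heart and blood vessel, lists below 0 include cholesterol synthesis, and 2 members beyond ±1.6 are outside the plotted range.

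The day 6 effect was set against the effect of BPK25 on the other days, each against DMSO of its own day; for day 4 this rests on the 3 libraries labelled BPK25 that stood apart. Over all genes, the effect at day 6 differed from that at day 4 for 7043 genes (40.5%), from that at day 2 for 1189 genes (6.84%) and from that at day 0 for 1040 genes (5.98%), by the interaction term of the same fit. Of the 698 genes that rose at day 6, 10.03% were also higher and 8.02% lower at day 0, 25.1% higher and 5.44% lower at day 2, and 40.8% higher and 32.5% lower at day 4. The same shares over all genes were 3.32% and 4.58% at day 0, 6.4% and 7.12% at day 2, and 26.2% and 26.8% at day 4. Read the other way, the genes shared with day 6 were 12.1% of those higher at day 0, 15.7% of those higher at day 2 and 6.25% of those higher at day 4. Of the 535 genes that fell at day 6, 9.35% were higher and 7.29% lower at day 0, 9.53% higher and 15.9% lower at day 2, and 18.7% higher and 45.8% lower at day 4. In all 4 days 26 genes were higher and 14 lower. Genes that rose at day 6 had risen between day 0 and day 4 in DMSO cells in 44.3% and fallen in 24.4% of cases, against 26.0% and 24.4% over all genes; those that fell at day 6 had risen in 21.3% and fallen in 37.2%.

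Of the 29 integrated stress response genes, 12 were higher with BPK25 at day 0, 16 at day 2, 22 at day 4 and 12 at day 6; none passed as lower at days 0, 2 and 6, and 2 were lower at day 4. Those 2 were Pck2, at -0.81 (adjusted p = 6.49e-15), which was higher by 0.26, 0.31 and 0.36 at days 0, 2 and 6, and Psph, the last enzyme of serine synthesis, at -0.18 (adjusted p = 0.0437), named after its values were seen. Trib3 was higher by 0.36, 0.40, 1.27 and 0.86 on the log2 scale at days 0, 2, 4 and 6, each past the threshold. Its level in DMSO cells was 24.9 ± 2.78 CPM at day 0, 30.3 ± 0.537 CPM at day 2, 7.54 ± 0.897 CPM at day 4 and 3.85 ± 0.127 CPM at day 6 (SD, n = 3 each). Aldh1l2 was higher by 0.46, 0.64, 1.11 and 0.61, and Nupr1 by 0.28, 0.32, 0.53 and 0.52. The size of the day 6 effect differed from that at day 2 in none of the 29 members by edgeR or DESeq2 (10 at an unadjusted p under 0.05), from that at day 0 in 2 and from that at day 4 in 17. Ccn2 and Igf2 passed the test at days 4 and 6: Ccn2 differed by 0.04 and 0.06 at days 0 and 2, short of the threshold, then by 1.51 at day 4 and 0.68 at day 6, and Igf2 by -0.07 and 0.72, both short of it, then by 1.48 and 0.63. Col1a1 passed on day 6 alone, with differences of 0.03, 0.06 and -0.33 on the earlier days; its day 6 effect differed from those of days 0, 2 and 4 (adjusted p = 0.0362, 0.0313 and 1.12e-05). Polr2d likewise passed on day 6 alone, after 0.11, 0.04 and -0.06.

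Other genes changed direction between days. Mta2 was lower with BPK25 by -0.21 at day 0, -0.36 at day 2 and -0.58 at day 4, all past the threshold, and higher by 0.36 at day 6; the day 6 effect differed from the day 4 effect by 0.95 ± 0.08 (adjusted p = 1.27e-14). At day 4 it averaged 269.4 ± 9.34 CPM with BPK25 and 405.4 ± 40.6 CPM with DMSO, so that both groups had other levels than at day 6. Hist1h2af was higher with BPK25 by 0.70 and 0.69 at days 0 and 2 and lower by -1.19 at day 4 and -0.51 at day 6. mt-Nd1 was lower by -0.22 and -0.34 at days 0 and 2 and higher by 0.17 and 0.20 at days 4 and 6, and of the 13 mitochondrially encoded genes 4 fell at day 0 and 3 at day 2, with none rising, while 11 rose at day 4. Srxn1 was higher by 1.74 at day 4, at 74.2 ± 1.48 CPM with BPK25 and 22.2 ± 0.905 CPM with DMSO, and lower by -0.48 at day 6. Dazl was lower on all 4 days.

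**Figure D4:**
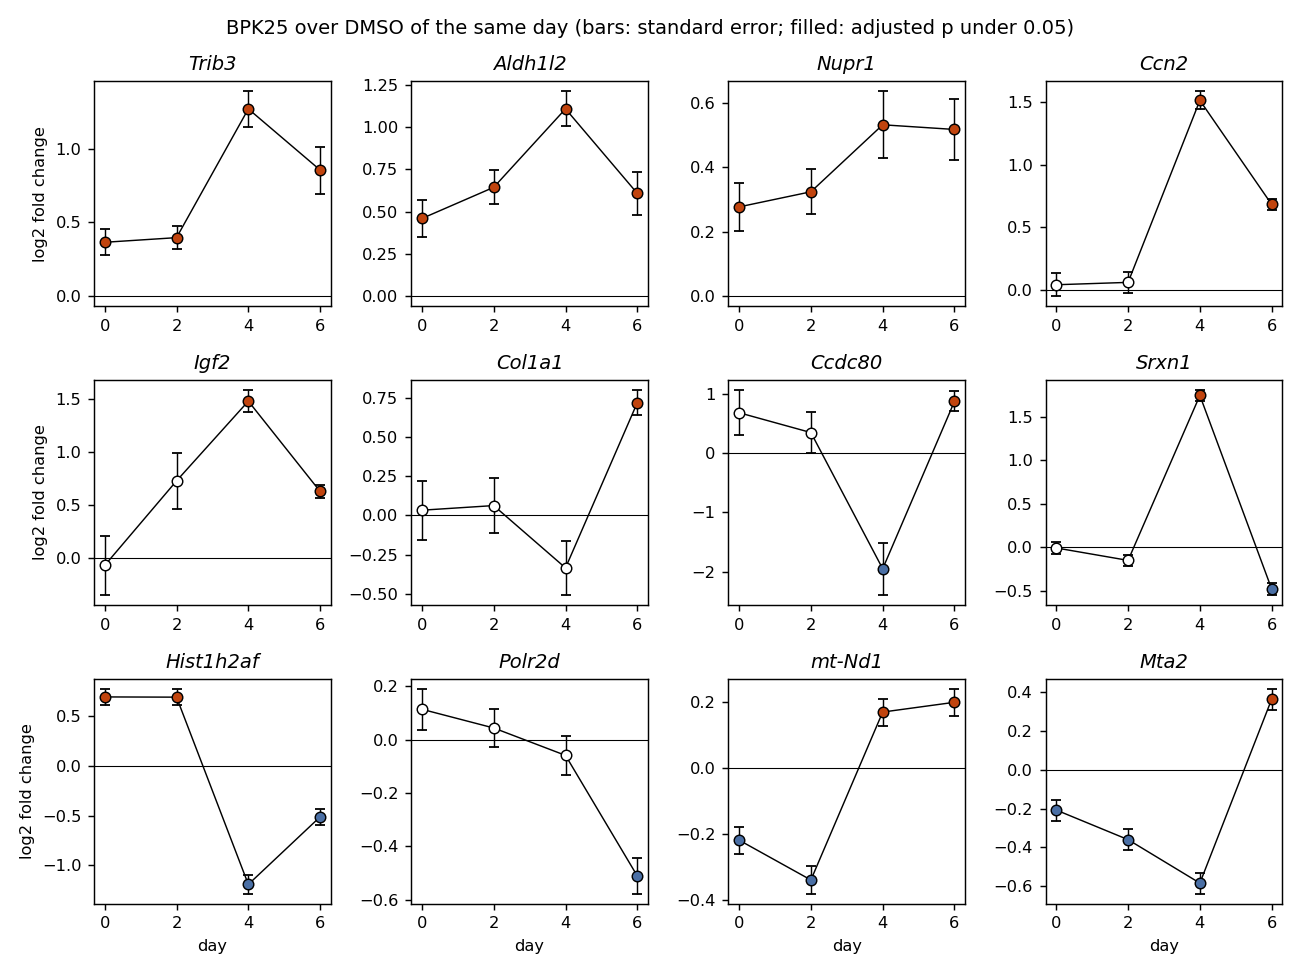
Log2 of BPK25 over DMSO on days 0, 2, 4 and 6 for 12 genes, with bars of 1 standard error. Trib3, Aldh1l2 and Nupr1 stay above 0 on each day, Ccn2 is near 0 before day 4, and Mta2 is below 0 until day 4 and at 0.36 on day 6.

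At day 6 the IAA libraries are a second set against the same DMSO libraries, so the comparisons of BPK25 and of IAA with DMSO share their controls and values are given side by side. The direct test of BPK25 against IAA at day 6 called 4820 genes higher and 5018 lower with BPK25 (56.6%). Igf2 averaged 102.3 ± 1.24 CPM with BPK25, 1077 ± 11.4 CPM with IAA and 66.5 ± 2.33 CPM with DMSO (SD, n = 3 each). Its log2 difference between BPK25 and IAA was -3.39 ± 0.05 (adjusted p = 4.02e-44), the smallest p of that test. Ccn2 averaged 160.5 ± 5.74 CPM with BPK25, 29.2 ± 1.95 CPM with IAA and between 99.08 and 100.5 CPM with DMSO: it was higher with BPK25 and lower with IAA than with DMSO. Nupr1 averaged 21.2 ± 2.19 CPM with BPK25, 1.63 ± 0.464 CPM with IAA and 15.1 ± 1.56 CPM with DMSO, also in opposite directions. Grb10 averaged 25.3 CPM with BPK25, 10.2 CPM with IAA and 18 CPM with DMSO. In other genes both compounds gave values above DMSO, with IAA the higher: Plet1 averaged 18.1 CPM with BPK25, 89.7 CPM with IAA and 10.6 CPM with DMSO, and Clu averaged 348.3 CPM with BPK25, 437.1 CPM with IAA and 257.7 CPM with DMSO. Mucl3, a mucin-like gene, averaged 86.5 CPM with BPK25, 0.864 CPM with IAA and 106.4 CPM with DMSO, and Stra8, a gene of meiotic entry, averaged 2456 CPM with BPK25, 410.3 CPM with IAA and 2542 CPM with DMSO. Trib3 averaged 6.90 CPM with BPK25, 2.95 CPM with IAA and 3.85 CPM with DMSO, a log2 difference of 1.23 ± 0.19 between BPK25 and IAA (adjusted p = 1.71e-07).

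The genes that moved were not spread evenly over the chromosomes, a pattern looked at after the values were seen. On chromosome 12, 66 of 701 tested genes rose and 6 fell. On chromosome 14, 14 of 207 genes before 40 Mb rose and none fell, while 8 of 392 genes beyond 40 Mb rose and 44 fell. On chromosome 8, 47 of 898 rose and 14 fell. On these 3 chromosomes together 9.05% of genes passed, against 6.80% of the 15196 genes elsewhere, of which 563 rose and 471 fell. Chromosome 12, at 10.27%, and chromosome 14 beyond 40 Mb, at 13.27%, carried this gap. Chromosome 8, at 6.793%, and chromosome 14 before 40 Mb, at 6.763%, did not pass more often than genes elsewhere. On the other autosomes the share lay between 5.053% on chromosome 18 and 9.33% on chromosome 10, and on chromosome X it was 8.626%. A fit that left out the genes of chromosomes 8, 12 and 14 called 551 higher and 441 lower. Of the members named above, Clu, Gata4, Mrpl57 and Pck2 lie on chromosome 14, and Jdp2 and Meg3 lie on chromosome 12. Aars, Cdh1, Col4a2, Kars, Map1lc3b, Palm3 and Zfp42 lie on chromosome 8. Wapl, the member of the CTCF and cohesin list that rose, also lies within these 3 chromosomes. Of the 12 integrated stress response genes that rose, 11 lie elsewhere.

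The same chromosomes also differed in level between groups of libraries. The median over genes of the log2 level relative to the mean of all libraries was 0.180 with BPK25 and 0.280 with DMSO at day 6 for chromosome 14 beyond 40 Mb, with ranges of 0.168 to 0.191 over the 3 BPK25 libraries and 0.274 to 0.294 over the 3 DMSO libraries. For chromosome 12 it was -0.024 with BPK25 and -0.066 with DMSO, again without overlap, and for chromosome 8 it was -0.043 with BPK25 and -0.056 with DMSO, with overlap. At day 4 these medians were further apart: for chromosome 14 beyond 40 Mb, -0.540 with BPK25 and 0.259 with DMSO, and for chromosome 12, 0.277 with BPK25 and -0.068 with DMSO. IAA libraries of days 2, 4 and 6 averaged between 0.223 and 0.271 for chromosome 12 and between -0.515 and -0.501 for chromosome 14 beyond 40 Mb, so the BPK25 libraries of day 4, unlike those of day 6, lay near the IAA libraries. At day 6 the BPK25 and DMSO libraries did not overlap on some other chromosomes either. Chromosome 19 was at -0.011 with BPK25 and 0.048 with DMSO, a wider gap than on chromosome 12. Chromosome 15 was at -0.026 with BPK25 and 0.016 with DMSO. Absence of overlap was thus not particular to the chromosomes named first. The part of chromosome levels in the calls on chromosomes 8, 12 and 14 was not tested.

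**Figure D5:**
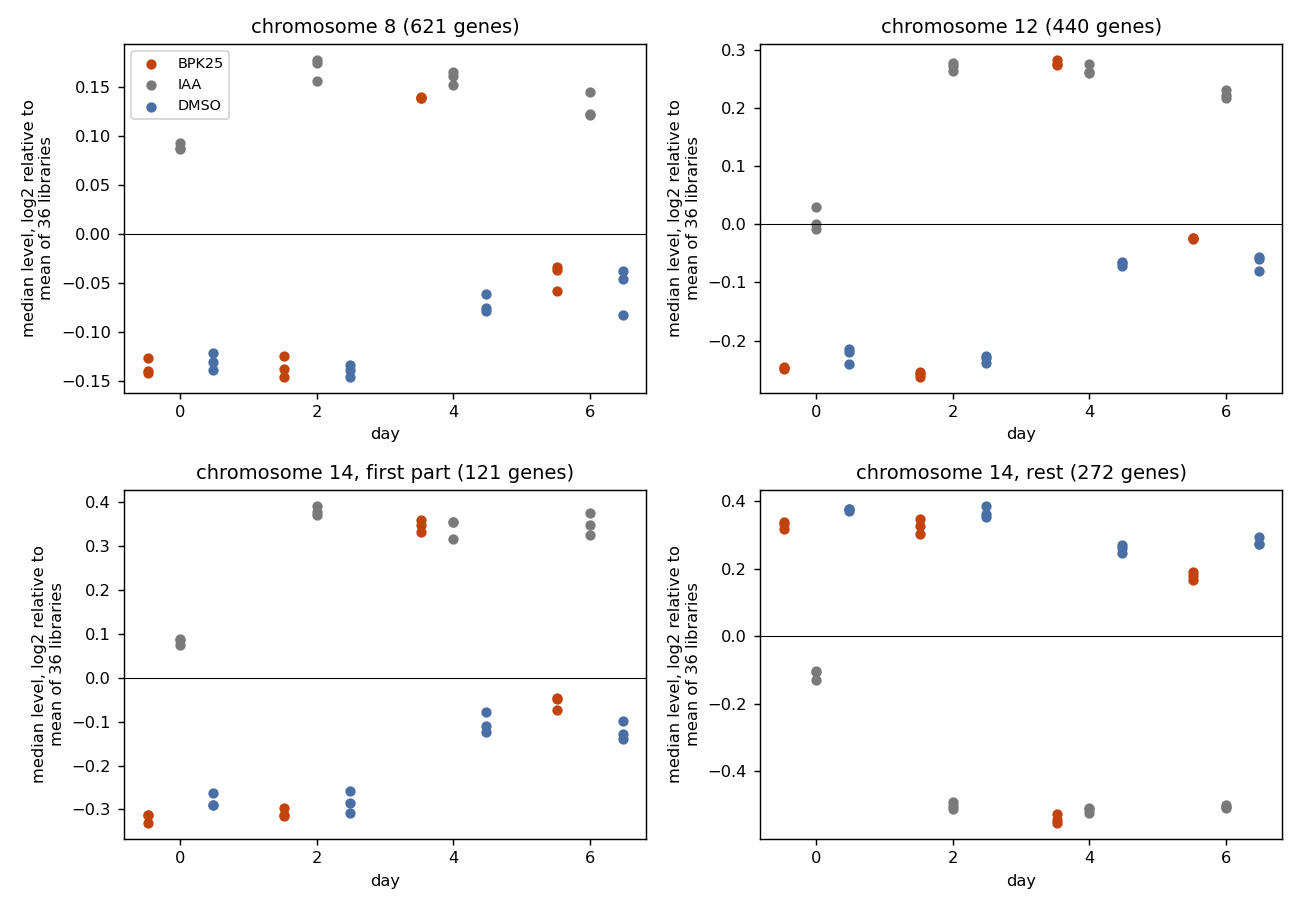
Median log2 level of the genes of chromosome 8, chromosome 12 and the parts of chromosome 14 before and beyond 40 Mb, relative to the mean over all libraries, for each library by treatment and day. BPK25 libraries of day 4 lie at 0.277 for chromosome 12 and at -0.540 for chromosome 14 beyond 40 Mb, apart from those of BPK25 at day 6 at -0.024 and 0.180.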

How the data were processed

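Polyadenylated RNA of 36 libraries was sequenced; the labels' protocols name the SMARTer mRNA-Seq preparation kit. The authors deposited 1 table of raw counts per gene (55335 genes) made with HISAT2 2.1.0 and featureCounts 2.0.1 on mm10, per the submitters' processing notes, which also name FastQC 0.11.7 and DESeq2. The strand setting and annotation release were not given in the sources used here. Reads shared by near-identical genes, overlapping models or antisense pairs can therefore be split or misassigned.

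Genes were filtered with edgeR 4.0.16 (filterByExpr, count of at least 10 and total of at least 15; 17394 kept), scaled by TMM (CPM are relative to the scaled library size), and tested by the quasi-likelihood test in 1 fit of all 36 libraries and 12 groups in R 4.3.3, with Benjamini-Hochberg adjustment over all genes tested and a threshold of 0.05. A standard error is the log2 difference divided by the square root of F. The common biological coefficient of variation was 3.86%. On simulated counts for these 17394 genes with this day 6 comparison, 48% of genes changed 1.25-fold, 70% changed 1.5-fold, 92% changed 2-fold and 100% changed 4-fold were called. There 10 calls were false, 6.06% of those made. The simulation changed 50 genes at each fold, from genes with a mean of at least 10 counts. No other gene differed between groups in it, unlike in the real data, so its shares need not hold for them. Replicates of day 6 differed by more than sampling noise (chi-square per degree of freedom 1.48 to 2.96), so all were kept. Alternatives were RLE size factors, DESeq2 1.42.0, no and stricter filters, fewer libraries in the fit, the replicate number as a block, each library left out, and 3 added after seeing the data. Genes named are the 15 highest and 15 lowest log2 differences with a mean of at least 5 CPM, no overlap and a call kept without each library, the 10 smallest p-values, the 5 smallest of each comparison with another day or with IAA, up to 6 members per list by p, and a few fixed genes. The comparison and the gene lists were chosen with earlier results of these data known.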

Additional observations from a re-analysis of the deposited data

Results flagged for a closer look

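The effect of BPK25 against DMSO at day 6 differed from the effect on another day, by the interaction term of the fit (edgeR's quasi-likelihood test with Benjamini-Hochberg adjustment), for 7043 genes against day 4, 1189 against day 2 and 1040 against day 0. Values below are the log2 effect at day 6 minus that of the other day.

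The day 4 values rest on the 3 libraries labelled BPK25 that stood apart from those of the other days. Against day 4, the genes with the smallest p-values were Ccn1 (-4.16), a matricellular YAP target, Tagln (-3.81), Pth1r (2.40), the parathyroid hormone receptor, Adamts9 (1.80), a matrix protease, and Lama1 (1.48). Ccn1 was higher with BPK25 by 4.48 at day 4 and 0.33 at day 6. The day 6 call of Ccn1 was lost without DMSO replicate 1 (0.27, adjusted p = 0.0535 by the same test). Pth1r was lower by -2.55 at day 4 with -0.15 at day 6, which did not pass. Among the genes with the largest day 6 differences, 6 passed with opposite signs at day 4: Ccdc80 (2.82), Ptger3 (2.13), Sparcl1 (2.00), Pet2 (1.23) and Tma7 (1.17) were lower at day 4 and higher at day 6, and Srxn1 (-2.22) was higher at day 4 and lower at day 6.

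Against day 2, they were Hist1h2af (-1.21), Gtf2h2 (1.08), a subunit of the repair and transcription factor TFIIH, Mta2 (0.72), mt-Nd1 (0.54) and the ribosomal protein gene Rps9 (-0.54). Against day 0, they were Hist1h2af (-1.21), Rnd3 (0.84), Eif1ax (0.60), an initiation factor, the growth factor Mdk (-0.57) and Rps9 (-0.49). Rnd3 was lower with BPK25 at days 0 and 2, by -0.42 and -0.35, and higher by 0.42 at day 6, at 79.2 CPM with BPK25 and 59.3 CPM with DMSO. Groups of 3 libraries are too small for a check of single outlying libraries.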

How the results depend on the processing

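The numbers of genes higher and lower with BPK25 at day 6 were 698 and 535, and they were 782 and 470 with RLE size factors, 630 and 330 with DESeq2, 585 and 444 with no filter, 696 and 534 with a stricter filter, 631 and 437 with only the libraries compared, and 627 and 402 with the 9 libraries of day 6. Without 1 library they lay between 320 and 710 higher and between 224 and 514 lower. The share of calls that were higher was 56.6%, against 62.5% with RLE size factors, 65.6% with DESeq2 and 52.5% with the trend of transcript length and GC content removed (641 higher, 579 lower). That setting, the fit without the BPK25 libraries of day 4 (705 and 541) and the fit without the genes of chromosomes 8, 12 and 14 (551 and 441) were chosen after seeing the data. With the replicate number as a block 684 genes were higher and 527 lower; same-numbered libraries did not deviate together (correlations 0.00059, -0.0212 and 0.00969), so they share only a number. The counts for the effect at day 6 against days 4, 2 and 0 lay between 6446 and 6780, 841 and 1200, and 696 and 1012 without 1 library, and those for BPK25 against IAA between 8943 and 9305.

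The log2 differences that changed sign were all of genes that did not pass the test. Without 1 library the log2 fold change of Mt1 lay between -0.183 and 0.00942, the log2 fold change of Mgp between -0.106 and 0.121, the log2 fold change of Nefl between -0.0372 and 0.0639, the log2 fold change of Hdac1 between -0.0629 and 0.0308, the log2 fold change of Cyp1a1 between -0.0961 and 0.153, the log2 fold change of Mbd3 between -0.0315 and 0.059, and the log2 fold change of Mta3 between -0.0862 and 0.0155. With DESeq2 the log2 fold change of Cyp1a1 was 0.00812. The cause was not tested. On simulated counts for this comparison, 70% of genes changed 1.5-fold and 92% of genes changed 2-fold were called. Far fewer genes differed there than in the real data, so these shares need not hold for them.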

Other observations

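Several genes outside the groups above also moved and kept their call without each library. Hspe1, a mitochondrial chaperone, averaged 355.0 ± 12.1 CPM with BPK25 and 290.9 ± 8.63 CPM with DMSO (log2 difference 0.29), and Tet2, which oxidises methylcytosine, averaged 106.2 ± 2.86 CPM with BPK25 and 87.5 ± 0.661 CPM with DMSO (0.28). Txnip, an inhibitor of thioredoxin, averaged 124.4 ± 2.68 CPM with BPK25 and 99.2 ± 3.09 CPM with DMSO (0.33), and Tmsb4x, which binds actin monomers, averaged 161.1 ± 13.3 CPM with BPK25 and 120.5 ± 6.33 CPM with DMSO (0.43). Hoxc9 and Meox1, 2 single homeobox genes, were higher as well: Hoxc9 averaged 19.4 ± 0.419 CPM with BPK25 and 12.9 ± 0.589 CPM with DMSO (0.58), and Meox1 averaged 36.8 ± 1.57 CPM with BPK25 and 26.0 ± 0.577 CPM with DMSO (0.50). Their lists did not move as a whole. Of 34 Hox genes 3 rose and none fell, with a median of -0.02, and Meox1 alone passed among 22 mesoderm genes. Likewise Tet2 alone passed among 12 DNA methylation genes, with a median of -0.03. In the Wnt list Ctnnb1, β-catenin, fell to 534.1 ± 12.2 CPM with BPK25, against 594.1 ± 3.41 CPM with DMSO (-0.15), and Ccnd2, a D-type cyclin, rose to 101.0 ± 3.02 CPM with BPK25, against 86.7 ± 3.21 CPM with DMSO (0.22). Zscan4c, a marker of the 2-cell-like state with several near copies, fell to 47.6 ± 1.75 CPM with BPK25, against 58.2 ± 2 CPM with DMSO (-0.30). Of 22 genes of that state, 2 fell and none rose by edgeR's quasi-likelihood test or by DESeq2, with 0 higher at an unadjusted p under 0.05.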
